A study of Ovis aries with 36 samples.

Results

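The genes described here are those that cells switch on when amino acids run short. They were chosen by gene name, as the loci named ATF4, ATF5, ASNS, DDIT3, TRIB3, CHAC1, SESN2, PSAT1 or PHGDH in the deposited count tables. Of these 9 genes, 8 were present in each of the 3 tissues, at 1 locus each, out of 31427 rows in the muscle tables, 31088 in the subcutaneous tables and 31852 in the perirenal tables. ATF5 was absent and was skipped. The question asked of them was whether fetuses of ewes fed corn, the diet with the lowest crude protein, showed the response driven by ATF4 in any of the 3 tissues.

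Cells sense a shortage of amino acids when uncharged transfer RNAs activate the kinase GCN2. The kinase phosphorylates the initiation factor eIF2 alpha, which slows protein synthesis in general while the mRNA of the transcription factor ATF4 is translated more. ATF4 then induces genes for amino acid synthesis, uptake and charging onto transfer RNA, together with genes that slow growth or promote cell death. ATF4 protein can therefore rise with no rise of its own mRNA, and its targets are the usual readout at the RNA level.

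The samples were fetuses of Polypay ewes bred to a single sire and fed, from mid to late gestation, isoenergetic diets whose main energy source was alfalfa haylage (HY, labelled Hay), corn (CN) or dried corn distillers grains (DG). Feeding ran until necropsy, when the fetuses were taken. HY was fed ad libitum, whereas CN and DG were limit-fed. By the study's intake values, HY ewes ate more dry matter than CN and DG ewes, whose dry matter intakes were close. Fibre and protein intake differed between all diets, and fat intake was highest in DG. The parts of fibre, fat, energy source and protein cannot be told apart here. Each of the 3 tissues, namely longissimus dorsi muscle, subcutaneous adipose tissue from near the shoulder blade and perirenal adipose tissue, gave 4 RNA pools per diet, 2 of female (F1, F2) and 2 of male fetuses (M1, M2), so that 36 libraries came from 26 fetuses of 15 dams. By the study's list of pools, littermates were split between pools in every diet, so that each HY and DG pool and all CN pools but F2 shared a dam with another pool of its diet. The pools are therefore not fully independent, and p-values measure the spread between pools only. Values are read counts divided by the scaled library size (CPM) within a tissue, and counts at a locus depend on its length, so levels are compared between pools and tissues and not between genes. The extent of a locus could also differ between tissues, which limits the comparisons between them.

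Total counts per library ran from 6705766 to 29625146. In muscle the CN pools were the shallowest, with 13749762 to 19387181 counts against 20370147 to 29625146 in DG and 19071024 to 22831074 in HY, and the part of this in the muscle comparisons was not tested beyond the scaling of each library. The sum of 12 skeletal muscle markers was 111976 to 161897 CPM in muscle and 29.2 to 735 CPM in perirenal adipose tissue. In the subcutaneous pools the 11 of these markers that were present summed to between 831 and 137105 CPM, a 165-fold range, with 2 of the 12 pools within the range of muscle itself. In pooled tissue, fewer cells of a type and less RNA per cell cannot be told apart.

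On the Oar_v3.1 assembly, with the extents assembled in muscle, ATF4 lay on chromosome 3 from 214928312 to 214931909, ASNS on chromosome 4 from 14991158 to 15007966, TRIB3 on chromosome 13 from 59927309 to 59936548, CHAC1 on chromosome 7 from 33499184 to 33500785, SESN2 on chromosome 2 from 237982977 to 237991184 and PSAT1 on chromosome 2 from 58081421 to 58109074. Extents could differ in the adipose tissues. There SESN2 began at 237981086 (subcutaneous) and 237981078 (perirenal), and CHAC1 ended at 33500057 in both. The part of this in the tissue levels was not tested. The region of DDIT3, on chromosome 3 from 161849828 to 161872924, was the same as that listed for MARS, a transfer RNA synthetase gene. The region of PHGDH, on chromosome 1 from 96205088 to 96364806, was also listed under other names. How the reads of such shared regions were split is not given in the sources used here, so the values of DDIT3 and PHGDH are less certain than those of the other genes.

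**Figure D1:**
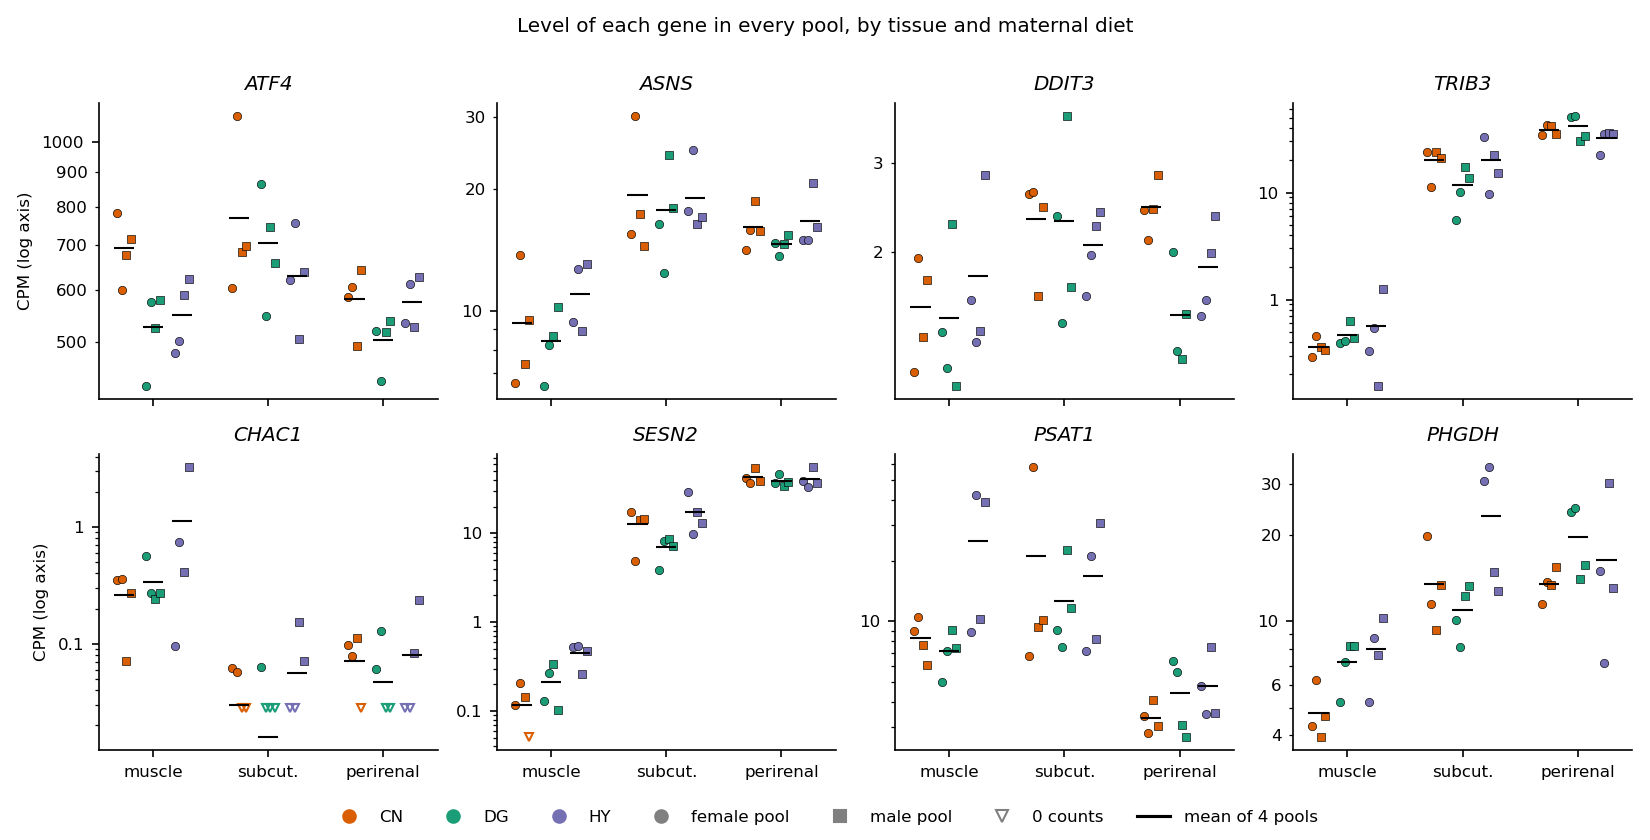
Level of the 8 genes in each of the 36 pools, in CPM on a log axis, by tissue (muscle, subcutaneous and perirenal adipose) and maternal diet, with the points of a group in the order F1, F2, M1, M2, bars at the mean of 4 pools and open triangles for pools with 0 counts, drawn below the lowest value. TRIB3 and SESN2 sit far lower in muscle than in the adipose tissues, and the diets overlap for nearly every gene.

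None of the 8 genes differed between diets at FDR ≤0.05 in any tissue by the edgeR quasi-likelihood test. For CN against the mean of DG and HY, 5 of the 8 genes had enough counts to be tested in muscle and 7 in each adipose tissue. Across all rows tested in muscle, 3.82% passed in that comparison, 1.02% for CN against DG, 2.95% for CN against HY and 0.0% for DG against HY, while in both adipose tissues 0.0% passed in every diet comparison. At an unadjusted p under 0.05, 2 genes passed in muscle and 1 in perirenal adipose tissue for CN against the mean of the other diets, and 0 in subcutaneous adipose tissue, beside 22.8%, 4.78% and 6.21% of all rows. In muscle 2 genes did so for CN against DG, 3 for CN against HY and 1 for DG against HY, beside 16.3%, 20.3% and 2.19% of all rows. The corresponding counts were 0, 1 and 2 in subcutaneous adipose tissue (15.0%, 4.37% and 18.2% of all rows) and 1, 0 and 0 in perirenal adipose tissue (9.85%, 2.34% and 9.96%). With DESeq2 in place of edgeR, 2 of the 5 genes tested in muscle passed for CN against the mean of the other diets, ATF4 and PHGDH, beside 9.39% of all rows, and they lay on opposite sides of 0.

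ATF4 mRNA, which encodes the transcription factor itself, was at 782, 599, 676 and 714 CPM in CN pools F1, F2, M1 and M2 of muscle. It was at 430, 574, 526 and 578 CPM in the DG pools and at 482, 503, 589 and 622 CPM in the HY pools. All 4 CN pools lay above all 4 DG pools, as was the case for 3.22% of all rows, whereas HY pool M2 overlapped the CN pools. The difference of CN from the mean of DG and HY was 0.37 on the log2 scale (95% interval 0.12 to 0.61, SE 0.12, edgeR FDR 0.0878, DESeq2 adjusted p 0.0218). Against DG alone it was 0.40 (edgeR FDR 0.185) and against HY alone 0.34 (edgeR FDR 0.184).

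ASNS encodes asparagine synthetase and is the classical target of ATF4. In muscle it was at 6.64, 13.7, 7.39 and 9.49 CPM in the CN pools, at 6.51, 8.23, 8.66 and 10.2 CPM in the DG pools and at 9.38, 12.7, 8.92 and 13.0 CPM in the HY pools. The diets overlapped throughout, and the difference of CN from the other diets was -0.04 on the log2 scale (95% interval -0.47 to 0.38, edgeR FDR 0.925). DDIT3, which encodes the stress factor CHOP, had only 19 to 54 counts per muscle library. Its difference was -0.05 (95% interval -0.66 to 0.55, edgeR FDR 0.934).

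Of the enzymes of serine synthesis, PHGDH lay lower in CN muscle than in both other diets, and PSAT1 lay lower than in HY alone. PSPH, the last enzyme of the pathway and not a member, differed in CN from the mean of DG and HY by 0.03 on the log2 scale (edgeR FDR 0.926). Its difference was 0.28 against DG alone (edgeR FDR 0.469) and -0.21 against HY alone (edgeR FDR 0.538). PHGDH, the first enzyme of that pathway, was at 4.31, 6.25, 3.95 and 4.68 CPM in the CN pools, at 5.21, 7.23, 8.18 and 8.22 CPM in the DG pools and at 5.21, 8.74, 7.63 and 10.3 CPM in the HY pools. Only CN pool F2 reached above the lowest pool of the other diets. The difference from the mean of DG and HY was -0.65 on the log2 scale (95% interval -1.09 to -0.22, SE 0.20, edgeR FDR 0.0829, DESeq2 adjusted p 0.0288). With edgeR it passed once CN pool F2 was left out (-0.81, FDR 0.0423), and without HY pools F2 and M2 it was -0.49 (FDR 0.256).

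PSAT1, the next enzyme of the pathway, was at 8.97, 10.5, 7.68 and 6.10 CPM in the CN pools of muscle and at 4.99, 7.14, 9.05 and 7.37 CPM in the DG pools. In the HY pools it was at 8.91, 42.4, 10.3 and 38.9 CPM. The high pools were F2 and M2, and the other 2 HY pools lay within the range of CN. Pools F2 and M2 hold littermates of one dam, as do F1 and F2, and F1 and M1, of other dams. CN minus HY was -1.59 on the log2 scale (SE 0.44, edgeR FDR 0.0646, DESeq2 adjusted p 0.00508, beside 7.7% of all rows called by DESeq2), and without pools F2 and M2, an alternative chosen because PSAT1 was seen to be high in them, it was -0.20 (edgeR FDR 0.803). CN minus DG was 0.23 (edgeR FDR 0.838). DG minus HY, at -1.82 (edgeR FDR 1.0), came to -0.43 in the same way (FDR 1.0).

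**Figure D2:**
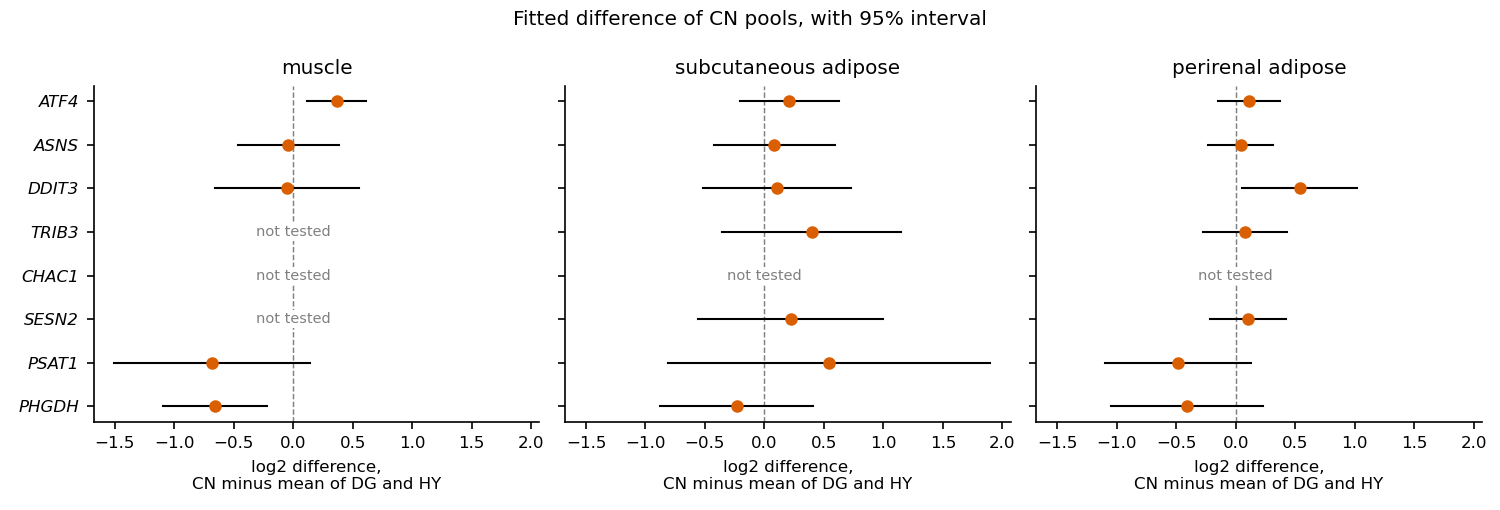
Fitted log2 difference of the 4 CN pools from the mean of the DG and HY pools for each gene, by tissue, with points for the estimate and lines for the 95% interval. The interval leaves out 0 for ATF4 and PHGDH in muscle, in opposite directions, and for DDIT3 in perirenal adipose tissue, and none of the 3 passed FDR ≤0.05 with edgeR.

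The other 3 genes were near the detection limit in muscle and were not tested there. TRIB3, a pseudokinase that restrains AKT and ATF4 signalling, had 3 to 24 counts per muscle library, with the 24 counts, at 1.26 CPM, in HY pool M2. SESN2, which restrains mTORC1 when leucine is short, had 0 to 13 counts. Its 4 CN pools, at 0.116, 0.205, 0.144 and 0 CPM, lay below the 4 HY pools, at 0.521, 0.541, 0.259 and 0.471 CPM, as in 7.12% of all rows, and the count of 0 in CN pool M2 allows a level of up to 0.203 CPM from counting error alone. With no filter on low counts CN minus HY for SESN2 was -1.85 on the log2 scale (SE 0.65, edgeR FDR 0.167).

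CHAC1 encodes an enzyme that degrades glutathione and is among the genes most strongly induced by ATF4. In muscle it was at 0.0718 to 0.359 CPM in the CN pools and at 0.242 to 0.564 CPM in the DG pools. The HY pools were at 0.0948, 0.749, 0.415 and 3.25 CPM, the last of these, M2, with 62 counts against 1 to 18 in every other muscle library. In adipose tissue CHAC1 had at most 2 counts in any library, with 0 counts in 7 subcutaneous and 5 perirenal pools, where a count of 0 allows up to 0.433 CPM.

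In muscle, then, the pools with the highest level of a gene were mostly HY pools. Of the 8 genes, 4 were highest in HY pool M2 (DDIT3, TRIB3, CHAC1 and PHGDH) and 2 in HY pool F2 (SESN2 and PSAT1), whereas ATF4 was highest in CN pool F1 and ASNS in CN pool F2. Over all rows tested, 4.04% were highest in HY pool M2 and 10.1% in HY pool F2. Those rows leave out TRIB3, CHAC1 and SESN2, which were near the detection limit, so the shares are not a like background for them. SESN2 was highest in HY pool F2 on 13 counts, with 11 in HY pool F1.

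**Figure D3:**
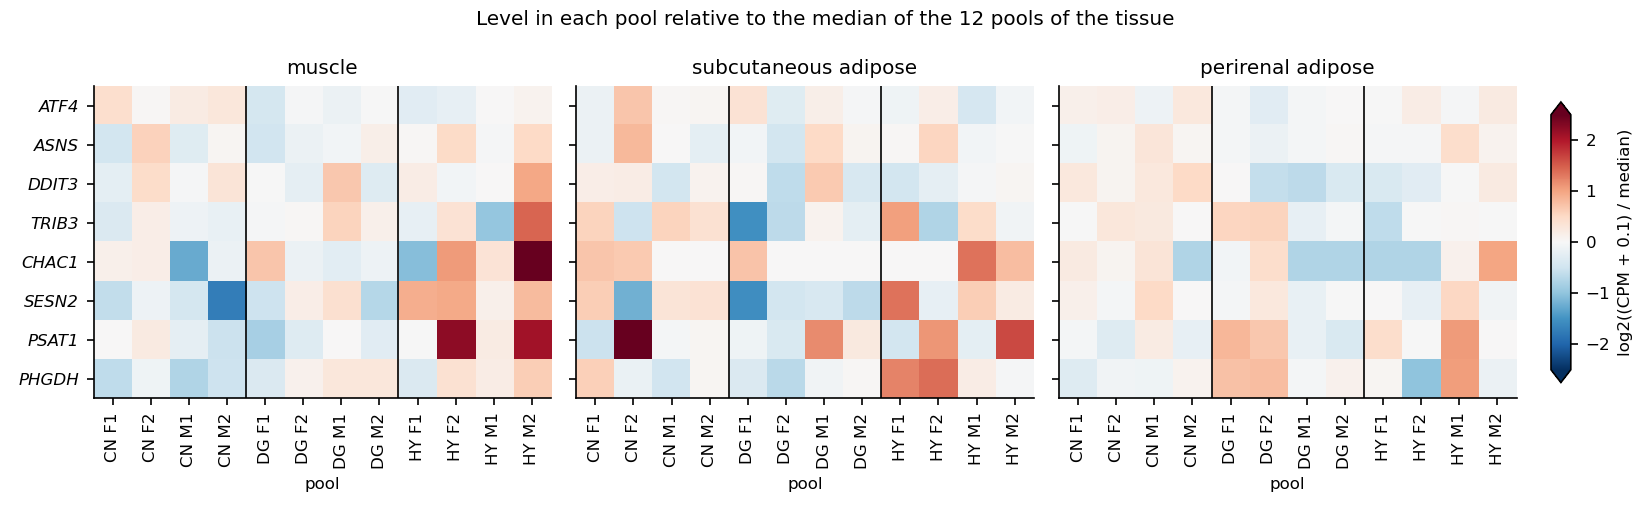
Level of each gene in each pool relative to the median of the 12 pools of the same tissue, as log2 of CPM plus 0.1 over that median, with red for higher and blue for lower and black lines between diets. HY pools F2 and M2 stand out in muscle for PSAT1, and HY M2 for CHAC1 and TRIB3, while CN pool F2 stands out in subcutaneous adipose tissue for PSAT1, ASNS and ATF4.

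In subcutaneous adipose tissue 1 CN pool stood apart. CN pool F2 was the highest of the 12 pools for ATF4, at 1093 CPM, for ASNS, at 30.2 CPM, and for PSAT1, at 58.1 CPM. The other CN pools were at 604 to 697 CPM for ATF4, at 14.4 to 17.3 CPM for ASNS and at 6.74 to 10.2 CPM for PSAT1. None of these values lay above the ranges of DG or HY. CN pool F2 had 58513 CPM of skeletal muscle markers, less than 4 of the 12 pools. With it, CN differed from the mean of DG and HY by 0.21 for ATF4 (95% interval -0.21 to 0.62, edgeR FDR 0.757), by 0.08 for ASNS (95% interval -0.42 to 0.59, FDR 0.911) and by 0.55 for PSAT1 (95% interval -0.81 to 1.90, FDR 0.790). Without it the difference turned below 0 for all 3, to -0.01, -0.22 and -0.74.

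TRIB3 and SESN2 were well expressed in the subcutaneous pools and tended to be lower where skeletal muscle markers were higher. TRIB3 was at 23.9, 11.3, 23.9 and 21.2 CPM in the CN pools, at 5.54, 10.2, 17.2 and 13.6 CPM in the DG pools and at 32.8, 9.60, 22.3 and 15.2 CPM in the HY pools. CN differed from the mean of the other diets by 0.40 (95% interval -0.35 to 1.15, edgeR FDR 0.749). Against DG alone the difference was 0.79 (edgeR FDR 0.365) and against HY alone 0.007 (edgeR FDR 0.998). Over the 12 pools, log2 TRIB3 fell as the log2 sum of muscle markers rose (Pearson r = -0.81, permutation p = 0.00136, adjusted over 7 genes 0.00952, and Spearman rho = -0.83, permutation p = 0.00158, adjusted 0.0111), and r was -0.86 without the 2 pools farthest from the median of the marker sum. With that sum as a covariate, CN differed from the mean of the other diets by 0.45 (edgeR FDR 0.380).

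SESN2 was at 17.4, 4.89, 14.2 and 14.7 CPM in the subcutaneous CN pools, at 3.82, 8.19, 8.63 and 7.18 CPM in the DG pools and at 29.1, 9.87, 17.4 and 13.1 CPM in the HY pools. All 4 DG pools lay below all 4 HY pools, as in 4.76% of all rows, with a difference of -1.32 on the log2 scale (SE 0.42, edgeR FDR 0.156, DESeq2 adjusted p 0.0424, beside 5.21% of all rows called by DESeq2). With the muscle marker sum as a covariate that difference was -0.92 (edgeR FDR 0.188). CN minus DG was 0.88 (edgeR FDR 0.347), or 0.69 with the covariate (edgeR FDR 0.296). CN minus HY was -0.44 (edgeR FDR 0.949), and CN differed from the mean of both by 0.22 (edgeR FDR 0.846). The marker sum had a median of 71400 CPM in DG pools against 9343 CPM in HY pools and 15854 CPM in CN pools, and the correlation of SESN2 with it was r = -0.69 (permutation p = 0.0134, adjusted 0.0468) and rho = -0.69 (permutation p = 0.0161, adjusted 0.0565), with r = -0.79 without the 2 farthest pools. For the other 5 genes the adjusted p of r was 0.621 or more.

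**Figure D4:**
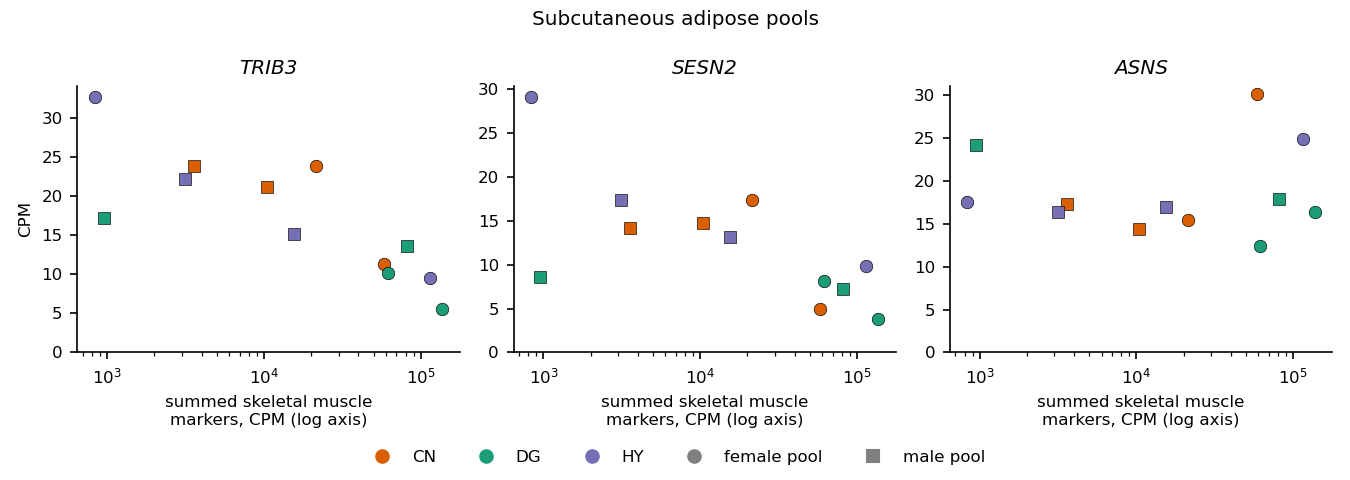
TRIB3, SESN2 and ASNS in the 12 subcutaneous pools (y axis, CPM) against the summed skeletal muscle markers of the same pool (x axis, CPM on a log axis), coloured by maternal diet. TRIB3 and SESN2 tend to be lower where muscle markers are higher, and ASNS is highest in CN pool F2. SESN2 departs from this in DG pool M1 (8.63 CPM at 951 CPM of markers) and HY pool F2 (9.87 CPM at 114941 CPM).

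PHGDH in subcutaneous adipose tissue was at 30.9 and 34.4 CPM in the female HY pools, against 14.8 and 12.7 CPM in the male HY pools, 8.13 to 13.3 CPM in the DG pools and 9.29 to 19.8 CPM in the CN pools. DG minus HY was -1.08 on the log2 scale (SE 0.34, edgeR FDR 0.152, DESeq2 adjusted p 0.0464) and CN minus HY was -0.78 (edgeR FDR 0.941). With the marker sum as a covariate the former was -1.10 (edgeR FDR 0.133). For DDIT3 the diets overlapped, and CN differed from the mean of the others by 0.10 (95% interval -0.51 to 0.72, edgeR FDR 0.908). For CN against DG all 7 genes tested in this tissue lay above 0, each with an edgeR FDR of 0.347 or more. Their median was 0.31 on the log2 scale against 0.0076 for all rows. Among the 7, ATF4, ASNS and PSAT1 were highest in CN pool F2. TRIB3 and SESN2 fell as the muscle marker sum rose, and the median of that sum was highest in DG. The part of these in the count of genes above 0 was not tested. For CN against HY 5 of the 7 lay above 0 and 2 below, with a median of 0.033 against 0.024 for all rows.

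In perirenal adipose tissue the CN pools overlapped the HY pools for every gene. ATF4 was at 438 to 643 CPM, SESN2 at 33.4 to 55.6 CPM and PHGDH at 7.17 to 30.2 CPM over the 12 pools. ASNS was at 14.1, 15.8, 18.6 and 15.7 CPM in the CN pools, at 13.6 to 15.4 CPM in the DG pools and at 14.9 to 20.7 CPM in the HY pools. CN differed from the mean of the other diets by 0.04 for ASNS (95% interval -0.23 to 0.32), by 0.11 for ATF4 (-0.15 to 0.37), by 0.08 for TRIB3 (-0.27 to 0.43) and by 0.11 for SESN2 (-0.21 to 0.43), each with an edgeR FDR of 0.999. The upper 95% bound of the ASNS difference was thus 0.32 here, 0.59 in subcutaneous adipose tissue and 0.38 in muscle.

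DDIT3 was the gene that came closest to a CN difference in perirenal adipose tissue. It was at 2.42, 2.11, 2.43 and 2.84 CPM in the CN pools, at 2.0, 1.28, 1.23 and 1.51 CPM in the DG pools and at 1.5, 1.61, 1.99 and 2.36 CPM in the HY pools, from 10 to 33 counts per library. The CN pools lay above all DG pools, as in 2.45% of all rows, but overlapped those of HY. CN minus DG was 0.68 on the log2 scale (SE 0.27, edgeR FDR 0.399), and CN differed from the mean of both by 0.54 (95% interval 0.05 to 1.02, edgeR FDR 0.984). PSAT1 and PHGDH had differences of -0.48 (95% interval -1.10 to 0.13) and -0.41 (95% interval -1.05 to 0.23), each with an edgeR FDR of 0.999.

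Whether the CN difference varied between tissues was tested in a joint fit of all 36 libraries with the pool as a block, over 13321 names. None of the 7 genes that entered it passed in any of the 3 pairs of tissues (edgeR). SESN2 and TRIB3 entered only through their adipose levels, so no test of theirs against muscle is given. Of the 5 genes with enough counts in each tissue, 0 had an unadjusted p under 0.05 for muscle minus perirenal, muscle minus subcutaneous or subcutaneous minus perirenal, beside 5.36%, 4.39% and 3.24% of all names. Over all names 0.0% passed FDR ≤0.05 in each pair. Between female and male pools no member passed FDR ≤0.05 in any tissue (edgeR and DESeq2), and none had an unadjusted p under 0.05, beside 3.84% (muscle), 14.8% (subcutaneous) and 3.26% (perirenal) of all rows. Of all rows 0.0223% passed FDR ≤0.05 between the sexes in perirenal adipose tissue and 0.0% elsewhere.

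The tissues themselves differed widely. Of the 5 genes with enough counts in each tissue, 4 differed between muscle and perirenal adipose tissue, 4 between the adipose tissues and 2 between muscle and subcutaneous adipose tissue in the joint fit (edgeR), where 80.2%, 66.9% and 72.0% of all names passed. SESN2 averaged 0.341 ± 0.232 CPM in muscle, 14.5 ± 8.32 CPM in subcutaneous and 41.1 ± 7.34 CPM in perirenal adipose tissue (SD, n = 12 pools, scaled over all 36 libraries). TRIB3 had the same order, at 0.616 ± 0.364, 20.2 ± 9.38 and 37.6 ± 8.26 CPM (SD, n = 12). For both genes the highest muscle pool, at 0.715 CPM for SESN2 and 1.66 CPM for TRIB3, lay below the lowest pool of either adipose tissue, at 4.37 and 6.34 CPM, and no fold against muscle is given because its counts were near 0. Between the adipose tissues both were lower in subcutaneous than in perirenal, with log2 differences of -1.68 for SESN2 and -0.99 for TRIB3 (edgeR FDR 1.88e-08 and 0.000505). Skeletal muscle markers summed to 831 to 137105 CPM in the subcutaneous pools and to 29.2 to 735 CPM in the perirenal pools. The part of this muscle RNA in the subcutaneous levels, here and for the genes below, was not tested.

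ATF4 mRNA was lowest in perirenal adipose tissue, at 778 ± 130 CPM in muscle, 819 ± 186 CPM in subcutaneous and 555 ± 62.8 CPM in perirenal adipose tissue (SD, n = 12). It was higher in muscle than in perirenal by 0.49 on the log2 scale (edgeR FDR 0.000133), and muscle and subcutaneous did not differ beyond their spread (-0.06, edgeR FDR 0.592). PSAT1 was at 17.8 ± 16.9, 19.8 ± 17.8 and 4.19 ± 1.49 CPM, higher by 1.68 in muscle and by 1.90 in subcutaneous than in perirenal (edgeR FDR 4.71e-05 and 2.4e-05). PHGDH was lower in muscle, at 8.78 ± 2.64 CPM, than in either adipose tissue, by 0.91 against perirenal and by 1.03 against subcutaneous on the log2 scale (edgeR FDR 0.000523 and 0.000203). ASNS was at 12.6 ± 3.16, 21.9 ± 6.06 and 15.8 ± 2.02 CPM, and each pair of tissues differed (edgeR FDR 0.00614 or less). DDIT3 differed between the adipose tissues, by 0.42 (edgeR FDR 0.0158), and not between muscle and perirenal (0.11, edgeR FDR 0.482) nor between muscle and subcutaneous (-0.31, edgeR FDR 0.0603).

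To see whether the genes moved together from pool to pool, the relation of ASNS to the other members was computed over the 12 pools of each tissue, giving 16 relations among genes with enough counts. ASNS went with PSAT1 in subcutaneous adipose tissue (r = 0.80, permutation p = 0.00292, adjusted p = 0.0467, rho = 0.65, permutation p = 0.0257, adjusted p = 0.197), and r was 0.55 without the 2 pools farthest from the median of ASNS. No other relation passed after adjustment. The next were ASNS with ATF4 in subcutaneous adipose tissue (r = 0.73, permutation p = 0.00832, adjusted p = 0.0627, rho = 0.62, adjusted p = 0.197), where r was 0.42 without the 2 farthest pools, and ASNS with PSAT1 in muscle (r = 0.69, permutation p = 0.0117, adjusted p = 0.0627, rho = 0.59, adjusted p = 0.197), where r was 0.70 without them. ASNS with TRIB3 had r = -0.18 in subcutaneous and r = -0.04 in perirenal adipose tissue.

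The named genes with a mean count of 50 or more whose level followed ASNS most closely, by Spearman's rho over the 12 pools, were none of the members. In muscle they were CKAP4 (rho 0.909), GPN1 (0.888) and CALU (0.881) out of 9898 genes ranked, in subcutaneous adipose tissue they included SOWAHC (0.832) and KCTD11 (0.825), and in perirenal adipose tissue MRPS27 (0.867), SP17 (0.860) and GNPAT (0.853). Among the members the highest place was that of PSAT1 in subcutaneous adipose tissue, at 65 of 9302.

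The remaining genes of the pathway were followed as 6 lists with 54 genes in all, covering sensors and brakes of eIF2 signalling, partner transcription factors, amino acid transporters, amino acid synthesis enzymes, cytosolic transfer RNA synthetases, and growth brakes and secreted targets. In muscle 45 of them were tested. For CN against HY, 0 were higher and 2 were lower in CN at FDR ≤0.05, beside 0.308% of all rows higher and 2.64% lower. Of the 45, 38 had a difference below 0, against 47.9% of all rows, with a median of -0.21 against 0.02 for all rows, and 16 had an unadjusted p under 0.05, against 20.3% of all rows, and 10 passed with DESeq2, against 7.7%. Of the same 45 genes 18 were highest in HY pool F2 and 8 in HY pool M2, against 10.1% and 4.04% of all rows. For CN against DG 0 of 45 passed (edgeR, with 9 at an unadjusted p under 0.05 beside 16.3% of all rows, and 1 by DESeq2 beside 3.79%), 27 were below 0, against 49.6% of all rows, and the median was -0.035. DG against HY had 0 of 45 passed (edgeR, with 11 at an unadjusted p under 0.05 beside 2.19% of all rows, and 0 by DESeq2 beside 0.011%), 32 below 0, against 46.7% of all rows, and a median of -0.14.

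Both genes that passed charge transfer RNAs. AARS, the alanyl-tRNA synthetase, was at 73.8, 88.3, 71.8 and 72.6 CPM in the CN pools, at 78.4, 85.3, 95.7 and 91.3 CPM in the DG pools and at 103, 109, 97.7 and 113 CPM in the HY pools. It fell by 0.46 on the log2 scale in CN against HY (SE 0.10, edgeR FDR 0.0332). TARS, the threonyl-tRNA synthetase, was at 51.7, 73.4, 57.6 and 58.9 CPM in the CN pools, at 59.6, 67.2, 85.0 and 69.5 CPM in the DG pools and at 89.8, 109, 76.2 and 92.6 CPM in the HY pools. It fell by 0.61 (SE 0.14, edgeR FDR 0.0416). For both genes all CN pools lay below all HY pools, as in 7.12% of all rows. The differences stayed between -0.54 and -0.42 for AARS and between -0.72 and -0.50 for TARS when 1 pool of the 12 was left out, while the calls, near the threshold, often did not hold. AARS lost its call in 9 of 12 fits that left out 1 pool and kept it without CN F2, DG F1 or DG M2, and TARS lost it in 8 of 12 and kept it without CN F2, DG F1, DG M1 or HY M1. Without HY pools F2 and M2 the differences were -0.38 and -0.45 (edgeR FDR 0.277 and 0.317).

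All 11 synthetases tested lay below 0 in CN against HY muscle, with a median of -0.35, and so did all 7 transporters, with a median of -0.10, and all 8 synthesis enzymes, with a median of -0.20. In DG against HY all 11 synthetases also lay below 0, with a median of -0.36, so that HY was the higher of each pair. The partner transcription factors had a median of -0.42 over 5 genes and the growth brakes and secreted targets -0.28 over 6. Among 8 sensors and brakes 4 lay on each side of 0. Among them, singled out after their values were seen, EIF2AK4, which encodes GCN2, averaged 90.2 CPM in CN, 77.3 CPM in DG and 74.0 CPM in HY, a difference from the mean of both of 0.25 on the log2 scale (SE 0.089, edgeR FDR 0.115). GCN1L1, whose protein GCN2 needs for its activation, lay the other way, at 65.5, 82.5 and 89.0 CPM, with a difference of -0.39 (SE 0.11, edgeR FDR 0.0591, DESeq2 adjusted p 0.0131), and EIF2AK1, the heme-regulated eIF2 kinase, had -0.40 (SE 0.17, edgeR FDR 0.181). A list of 13 genes of the other arms of endoplasmic reticulum stress, kept for contrast, had 12 tested, 0 passed (edgeR and DESeq2, 3 at an unadjusted p under 0.05) and a median of -0.055. In the adipose tissues 0 of the 42 pathway genes tested passed in any comparison (edgeR). At an unadjusted p under 0.05 there were 5 in subcutaneous and 4 in perirenal for CN against DG, beside 15.0% and 9.85% of all rows, and 1 and 0 for CN against HY, beside 4.37% and 2.34%. DESeq2 called 1 in each adipose tissue for CN against DG, beside 1.47% and 1.49% of all rows. The subcutaneous call, a transfer RNA synthetase, was higher in CN (0.69 on the log2 scale, DESeq2 adjusted p 0.048, edgeR FDR 0.258). The perirenal call, a partner transcription factor, was lower in CN (-2.16, DESeq2 adjusted p 0.00697). The medians for CN against HY were 0.096 in the subcutaneous and -0.041 in the perirenal pools.

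**Figure D5:**
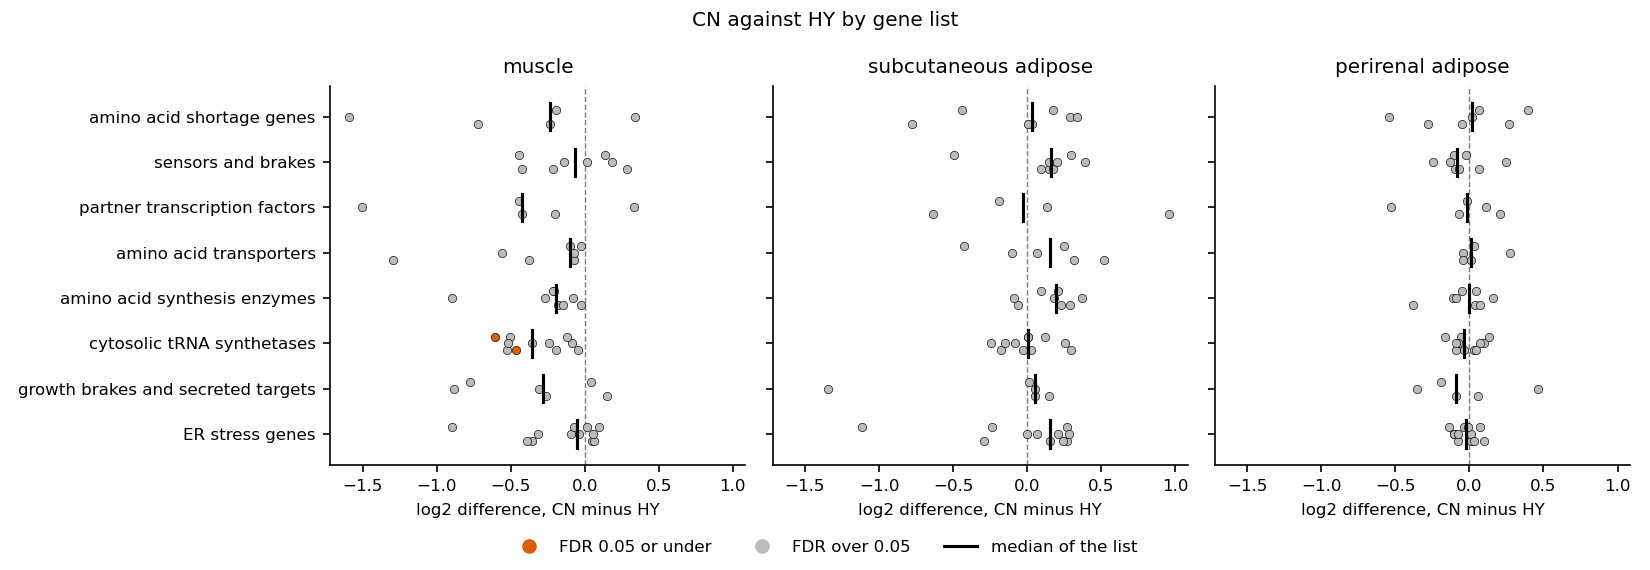
Log2 difference of CN minus HY for each tested gene of the amino acid shortage genes, the 6 pathway lists and the endoplasmic reticulum (ER) stress list, by tissue, with orange points for the genes at FDR ≤0.05 and black bars for the median of each list. In muscle the medians lie below 0, and the only genes that passed are AARS and TARS among the transfer RNA synthetases, both lower in CN.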

How the data were processed

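Per the file headers and labels, the authors deposited raw read counts per locus, 1 table per library. By the study's methods, reads were aligned to Oar_v3.1 with TopHat2 2.0.4 (at most 2 mismatches, reads with over 40 equal locations discarded), assembled with Cufflinks 2.1.1 and merged with the annotation. Loci are numbered separately in each tissue's files. The submitters' processing notes also list HTSeq, and the program that counted the reads is not given in the sources used here. Loci of one name were summed. The members and gene lists were chosen with earlier results of these data known. Rows passing filterByExpr (minimum count 10, minimum total 15) numbered 18157 (muscle), 17744 (subcutaneous) and 17926 (perirenal). Libraries were scaled by TMM, and diets were compared over the 12 pools of a tissue with the quasi-likelihood F test of edgeR 4.0.16 (R 4.3.3), adjusted by Benjamini-Hochberg. Tissues were compared over all 36 libraries with pool as a block. Intervals are 95% from the fit. DESeq2 1.42.0, RLE scaling, no filter, a replicate block, fewer diets, the largest locus per name and leaving out each pool were alternatives. Relations were computed on log2 CPM (prior count 2) with 100000 permutations, two-sided, by scipy 1.17.1, and adjusted over the 16 relations whose genes passed the filter. Named genes were all members, the pathway genes at FDR ≤0.05 and the 3 genes per tissue most like ASNS. PSPH, EIF2AK4, GCN1L1 and EIF2AK1 were added after their values were seen. Genes withheld from this text are not reported here. Scripts were tested on counts simulated with the same spread for all genes. For CN against DG, edgeR found 73% (muscle), 74.5% (subcutaneous) and 63.5% (perirenal) of 200 genes changed by 1 on the log2 scale. With changes of 2, 11.5%, 7.83% and 8.68% of the DESeq2 calls were false, against 4.76%, 3.38% and 6.1% of the edgeR calls. In 54 pairs of pools of 1 group the counts differed beyond sampling noise (chi-square per degree of freedom 9.93 or more). No sequences are shown. Intervals and limits for counts of 0 (3 counts) cover counting error only.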

Additional observations from a re-analysis of the deposited data

Results flagged for a closer look

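In 6 of 72 groups of 4 pools, 1 pool stood apart from the other 3 by Dixon's criterion at the 95% level, which chance alone gives in about 1 group in 20 for normally distributed values. That rate does not hold for groups of very low counts, such as CHAC1 in adipose tissue. There, a group with 1 count in 1 pool and 0 in the other 3 passes by construction. In subcutaneous adipose tissue CN pool F2 was at 58.1 CPM for PSAT1 against 6.74 to 10.2 CPM in the other CN pools, HY pool F2 was at 24.9 CPM for ASNS against 16.4 to 17.6 CPM, and CN pool M1 was at 1.64 CPM for DDIT3 against 2.45 to 2.62 CPM. The DDIT3 value came from only 12 counts, with 17 in CN pool M2, and the part of counting error in it was not tested. Skeletal muscle markers summed to 58513 CPM in CN pool F2, 114941 CPM in HY pool F2 and 3583 CPM in CN pool M1, and their part in these values was not tested. In perirenal adipose tissue HY pool F1 was at 22.6 CPM for TRIB3 against 34.9 to 35.6 CPM. CHAC1 was at 0.564 CPM in DG pool F1 of muscle against 0.242 to 0.272 CPM in the other DG pools, and at 0.0637 CPM in DG pool F1 of subcutaneous adipose tissue, from 1 count, where the other DG pools had 0.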

How the results depend on the processing

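Taken once per comparison and alternative setting, the count of genes called between diets stayed at 0 of the 8 in 215 of 221 results. Several comparisons were read from each refit, so these results are not independent. The exceptions were DESeq2, which called 2 in muscle for CN against HY (PSAT1 and PHGDH), 2 for CN against the mean of DG and HY (ATF4 and PHGDH) and 2 in subcutaneous adipose tissue for DG against HY (SESN2 and PHGDH), and fits that left out 1 muscle pool, which gave 0 to 1 in muscle for CN against HY and for CN against the mean. These were PHGDH without CN F2 and PSAT1 without HY M1. Of the pathway genes, DESeq2 called 10 in muscle for CN against HY in place of 2, 7 for CN against the mean, 1 for CN against DG, 1 and 2 in subcutaneous adipose tissue for CN and HY against DG, and 1 in perirenal for CN against DG. The muscle count for CN against HY was 1 with no filter on low counts and 0 without HY pools F2 and M2, and ran from 0 to 7 with 1 pool left out, against 0 to 8 for CN against the mean and 0 to 1 for CN against DG. Over all rows DESeq2 called 1705 in muscle for CN against the mean in place of 694, 689 for CN against DG in place of 186 and 1398 for CN against HY in place of 536. In place of 0 it called 261 in subcutaneous and 267 in perirenal adipose tissue for CN against DG, and 924 and 97 for DG against HY.

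Replicate numbers name pools of one sex and no shared source between diets, and the deviations of same-numbered pools correlated over 0.1 in 3 of 12 pairs in muscle, 8 of 12 in subcutaneous and 3 of 12 in perirenal adipose tissue. With the replicate number as a block the members called stayed at 0, the pathway genes called in muscle for CN against HY went from 2 to 0, and in subcutaneous adipose tissue for DG against HY from 0 to 1, beside 270 in place of 536 and 281 in place of 0 of all rows. Without the pool block in the joint fit 6 of the 7 members differed between the adipose tissues, as with it, where 66.9% of all names passed with the block. Counts against muscle are left out, because SESN2 and TRIB3 entered the fit only through their adipose levels.

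Several differences near 0 turned direction when 1 pool was left out, none of them called. For CN against the mean the log2 range was -0.30 to 0.093 for ASNS and -0.18 to 0.11 for DDIT3 in muscle. It was -0.010 to 0.28 for ATF4, -0.22 to 0.20 for ASNS, -0.019 to 0.27 for DDIT3, -0.012 to 0.50 for SESN2 and -0.74 to 0.82 for PSAT1 in subcutaneous, and -0.031 to 0.11 for ASNS and -0.022 to 0.20 for SESN2 in perirenal adipose tissue. Between tissues it was -0.054 to 0.31 for PHGDH (subcutaneous minus perirenal), and -0.13 to 0.022 for ATF4 and -0.36 to 0.032 for PSAT1 (muscle minus subcutaneous). DDIT3 lost its call between the adipose tissues without DG M1 (FDR 0.0542) and gained one between muscle and subcutaneous without HY M2 (FDR 0.0420). Without HY pools F2 and M2 the muscle differences of CN from the mean were 0.099 for ASNS, 0.076 for DDIT3, 0.018 for PSAT1, 0.39 for ATF4 and -0.49 for PHGDH, and PHGDH against HY was -0.41 (FDR 0.573) in place of -0.72. The cause was not tested beyond the pools left out.

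Without the 2 pools farthest from the median of ASNS, r with TRIB3 was 0.18 in subcutaneous, and r with SESN2, PSAT1 and PHGDH was -0.52, -0.57 and -0.31 in perirenal adipose tissue. On deviations from the diet means, r was -0.33 with ATF4 and 0.21 with TRIB3 in perirenal adipose tissue. Depth limited DDIT3, with 10 to 54 counts per library, and CHAC1, TRIB3 and SESN2 in muscle.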

Other observations

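Several single pools held the highest level of many genes at once. In perirenal adipose tissue HY pool M1 was the highest of the 12 pools for ASNS, SESN2, PSAT1 and PHGDH, and for 11 of 42 pathway genes, beside 8.41% of all rows. In subcutaneous adipose tissue CN pool F2 was highest for 10 of 42, beside 5.32% of all rows. These pools were singled out after their values were seen, so no test is given.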
